A study of Mus musculus with 388 samples.

Results

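The genes described are Csf1, Il34, Tnfsf11 and Tnfrsf11b, 4 of the 25000 genes in a table of single bone marrow stromal cells, picked by their symbols as ligands and a decoy receptor that regulate macrophages and osteoclasts. The study sorted CD45-Ter119-CD31-PDGFRα+ cells from bone marrow of C57BL/6 mice and sequenced the polyA RNA of single cells. Every mouse carried KitMerCreMer, a tamoxifen-dependent Cre, and the R26tdTomato reporter, was treated with tamoxifen at E12.5 and 14.5 (days of embryonic development), and was 2 months old when cells were taken. Tomato+ cells therefore carry the label switched on in cells with Cre activity at the time of tamoxifen, or in their descendants, and Tomato- cells from the same kind of mouse do not. The comparison asks which genes differ in level between adult stromal cells with and without the fetal label. Of 388 cells, each deposited as its own sample, 386 were kept, and 47.9% of these were Tomato+ and 52.1% Tomato-. Titles divide the cells into 2 orders and into sets, and the labels do not say what these stand for. Order 1 held the Tomato+ sets P1, P2 and P3 with 94, 5 and 38 cells and the Tomato- set N2 with 60 cells. Order 2 held the Tomato+ sets P1 and P2 with 24 cells each and the Tomato- sets N1 and N2 with 71 and 70 cells. The labels name no animal, so each group is 1 sample, no test was made, and no spread between animals can be given.

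CSF1 (M-CSF, encoded by Csf1) and IL-34 (Il34) are secreted ligands that share no sequence family but bind the same receptor, CSF1R, on monocytes, macrophages and osteoclast precursors, and support their survival and growth. RANKL (Tnfsf11) is a membrane-bound TNF family ligand that binds RANK (Tnfrsf11a) on those precursors and drives them to become osteoclasts. Osteoprotegerin (OPG, Tnfrsf11b) is a secreted decoy receptor that captures RANKL, so the balance of both is known to set bone resorption. Lepr+ stromal cells of adult marrow are a known source of CSF1 and of RANKL.

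In the GRCm38 build (GENCODE M21) all 4 genes lie on the minus strand. Csf1 spans chr3:107741048-107760469, Il34 spans chr8:110741829-110805924, Tnfsf11 spans chr14:78277445-78308043, and Tnfrsf11b spans chr15:54250619-54278484. Their exons cover 5281, 1959, 2236 and 2818 bases in the same order of genes. Among the 3 ligands Csf1 and Tnfsf11 are at opposite ends of detection, with Csf1 read in nearly every cell and Tnfsf11 in a part of them. The promoter source used held no entry for Il34 and Tnfrsf11b, so the promoters of Csf1 and Tnfsf11 are shown. Each is the 250 bases before the gene's start from RefSeq (GRCm38.p6), 5′ to 3′ on the gene's strand, chr3:107760470-107760719 for Csf1 and chr14:78308044-78308293 for Tnfsf11, with the motif matches in capitals.
Csf1: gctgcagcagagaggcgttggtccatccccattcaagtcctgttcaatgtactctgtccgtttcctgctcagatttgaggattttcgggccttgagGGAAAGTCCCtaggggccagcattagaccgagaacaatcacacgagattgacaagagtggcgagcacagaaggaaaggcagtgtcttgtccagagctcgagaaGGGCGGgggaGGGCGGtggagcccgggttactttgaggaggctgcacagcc
Tnfsf11: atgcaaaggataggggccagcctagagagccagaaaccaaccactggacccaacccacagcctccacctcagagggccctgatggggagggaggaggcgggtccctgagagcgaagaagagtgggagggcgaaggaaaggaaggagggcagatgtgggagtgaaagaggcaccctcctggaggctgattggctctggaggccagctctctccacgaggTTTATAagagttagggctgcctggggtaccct
Searched on both strands were a TATA box (TATAAA), a GC box (GGGCGG), an AP-1 site (TGANTCA) and a 10-letter NF-κB site, which stands in capitals in the Csf1 promoter as the run that opens with GGAAAG. No matches overlapped one another. The Csf1 promoter held the GC box at 2 places, 51 and 41 bases before the start, and the NF-κB site once, on the opposite strand. The Tnfsf11 promoter held the TATA box once, on the opposite strand (printed as TTTATA), 32 bases before the start. Of 32851 promoters of this length, 32.7% held the GC box, 12.4% the TATA box, 6.75% the AP-1 site and 0.140% the NF-κB site. G and C made up 56.4% of the Csf1 promoter and 60.4% of the Tnfsf11 promoter, with 10 and 4 CpG dinucleotides. These matches describe letters only; no binding was measured.

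The kept cells held between 18031 and 3833473 counts, with a median of 679644.5, and the median cell had counts for 4419.5 genes. Median depth was 774174 counts in Tomato+ and 500701.5 in Tomato- cells of order 1, and 653682.5 in Tomato+ and 649235 in Tomato- cells of order 2. Levels below are CPM, the counts scaled to a total of 1000000 in a cell or in the summed cells of a group. Intervals are exact 95% Poisson intervals for sums and exact Clopper-Pearson 95% intervals for shares of cells; they cover counting error only, and reads amplified without molecular identifiers are not independent molecules. Pdgfra, the gene of the sorted surface marker, had 291.8 CPM in Tomato+ and 544 CPM in Tomato- cells of order 1. Its medians there ran the other way, at 110.4 CPM in Tomato+ and 23.02 CPM in Tomato- cells. A single cell held 20.3% of the Pdgfra counts in Tomato- cells of order 1. In order 2 summed Pdgfra was 385 CPM in Tomato+ and 343 CPM in Tomato- cells. Kit, whose promoter drives the Cre, had 16.9 CPM in Tomato+ and 0.335 CPM in Tomato- cells of order 1, and 47.6 CPM in Tomato+ and 8.94 CPM in Tomato- cells of order 2. Lepr, the leptin receptor that marks adult marrow stroma, differed less, at 3657 CPM in Tomato+ and 4261 CPM in Tomato- cells of order 1 and 4141 CPM in Tomato+ and 4381 CPM in Tomato- cells of order 2. The gate against CD45 left 0 Tomato+ and 12 Tomato- cells with at least 5 counts of Ptprc, its gene, and that against CD31 left 13 Tomato+ and 15 Tomato- cells with at least 5 counts of Pecam1, its gene.

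At 5 counts or more, the ligands of CSF1R were read in most of these cells, RANKL in 44.04% of them, and OPG in almost none. In order 2 RANKL reached 5 counts in 58.3% of Tomato+ and 56.7% of Tomato- cells. At least 5 counts were found in 357 of 386 cells for Csf1, in 319 for Il34, in 170 for Tnfsf11 and in 5 for Tnfrsf11b. On the scale of CPM per kilobase of exon, which allows levels of different genes to be compared if reads cover the whole transcript, Il34 stood at 235.5, Csf1 at 140.5, Tnfsf11 at 57.4 and Tnfrsf11b at 1.05 over all cells. That order of genes held in both groups and both orders. In the same unit Il34 had 304 in Tomato+ and 160.1 in Tomato- cells of order 1, and 223 in Tomato+ and 184.2 in Tomato- cells of order 2. Csf1 had 161.02 in Tomato+ and 65.2 in Tomato- cells of order 1, and 130.4 in Tomato+ and 146.1 in Tomato- cells of order 2, so the lead of Il34 was smallest in Tomato- cells of order 2.

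**Figure D1:**
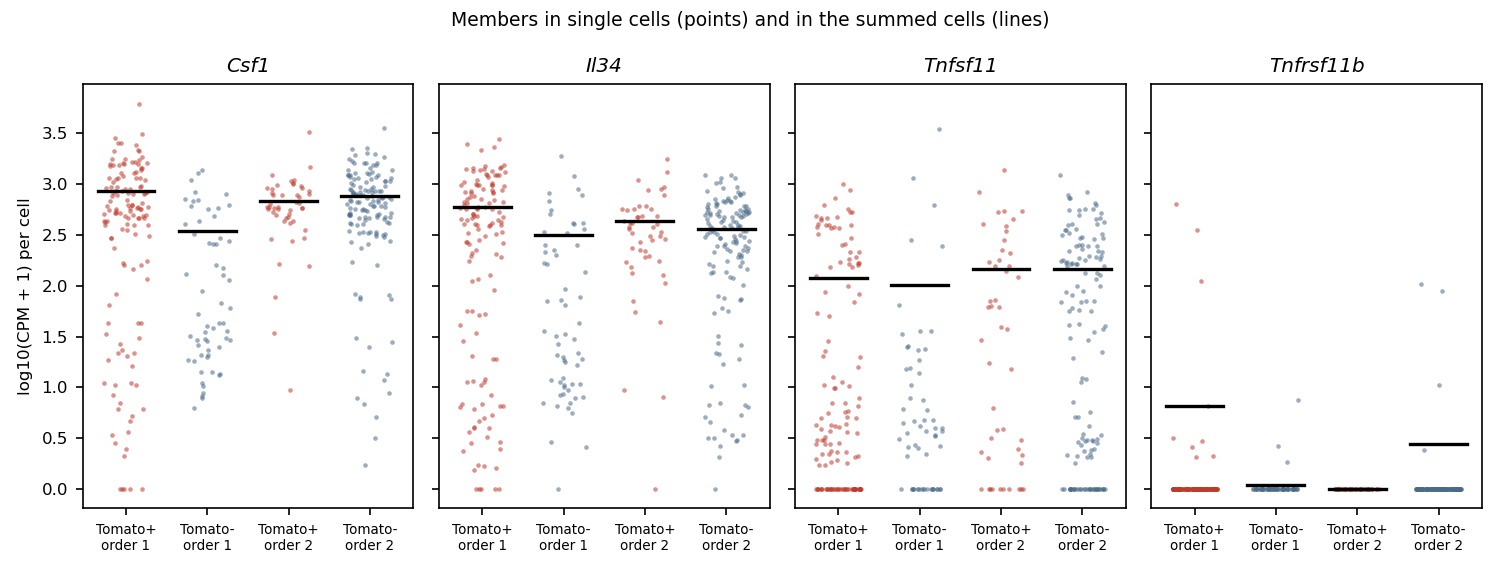
Level of the 4 genes in each of 386 cells (points, log10 of CPM + 1) in Tomato+ (red) and Tomato- (blue) cells of order 1 and order 2; black lines are the level in the summed cells. Csf1 and Il34 are low in many cells of order 1 and in few of order 2, Tnfsf11 is split between cells near 0 and cells over 100 CPM, and Tnfrsf11b reaches 5 counts in 5 cells.

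Csf1, the main growth factor of macrophages and osteoclast precursors, was higher in Tomato+ than in Tomato- cells in order 1 and slightly lower in order 2. Summed Csf1 was 850.3 CPM (845 to 856) in Tomato+ and 344 CPM (338 to 351) in Tomato- cells of order 1. In order 2 it was 688 CPM (679 to 698) in Tomato+ and 771 CPM (766 to 777) in Tomato- cells. Tomato- cells of order 1 thus stood apart from the other 3 groups of cells, which lay between 688 and 850.3 CPM. The single cells show the same: in order 1 Csf1 ranged from 0 to 6190.0 CPM with a median of 563 in Tomato+ cells, and from 5.22 to 1394 CPM with a median of 46.9 in Tomato- cells. In order 2 the range was 8.53 to 3229 CPM with a median of 598 in Tomato+ cells, and 0.734 to 3599 CPM with a median of 669 in Tomato- cells. The ranges overlapped in both orders. A level of at least 100 CPM was reached by 75.2% (67.1 to 82.2) of Tomato+ and 43.3% (30.6 to 56.8) of Tomato- cells in order 1. In order 2 it was reached by 93.8% (82.8 to 98.7) of Tomato+ and 87.9% (81.4 to 92.8) of Tomato- cells, where the intervals overlap.

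Il34, the other CSF1R ligand, was higher in Tomato+ cells in both orders, by more in order 1. Its summed level was 596 CPM (591 to 600.2) in Tomato+ and 314 CPM (308 to 319.7) in Tomato- cells of order 1. The gap in order 2 was smaller than in order 1. Il34 had there 437 CPM (429.7 to 444) in Tomato+ and 361 CPM (357 to 365) in Tomato- cells. Cells in order 1 ranged from 0 to 2776 CPM with a median of 409 in Tomato+ and from 0 to 1882 CPM with a median of 31.6 in Tomato- cells. In order 2 they ranged from 0 to 1760.4 CPM with a median of 346 in Tomato+ and from 0 to 1235 CPM with a median of 319 in Tomato- cells. As with Csf1, the low cells were most frequent among Tomato- cells of order 1, and all ranges overlapped. At least 100 CPM of Il34 was found in 67.9% (59.4 to 75.6) of Tomato+ and 36.7% (24.6 to 50.1) of Tomato- cells of order 1, and in 87.5% (74.8 to 95.3) of Tomato+ and 76.6% (68.7 to 83.3) of Tomato- cells of order 2.

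Tnfsf11, the osteoclast-inducing ligand, stood within 1.5-fold of equal in both orders. It had 117.98 CPM (115.97 to 120.01) in Tomato+ and 100.5 CPM (97.1 to 104.03) in Tomato- cells of order 1, and 145.2 CPM (140.97 to 149.5) in Tomato+ and 144.7 CPM (142.3 to 147.2) in Tomato- cells of order 2. Tnfsf11 split the cells in both orders, whereas the CSF1R ligands were low in many cells of order 1 and in fewer of order 2. Of all cells 27.5% had no count, 28.5% had 1 to 4 counts, and 44.04% had 5 or more, with a median of 124.5 counts and 185.8 CPM in these. The median cell of each group and order held far less than the summed level. In single cells of order 1 it ranged from 0 to 1004 CPM with a median of 2.94 in Tomato+ and from 0 to 3487 CPM with a median of 2.75 in Tomato- cells. In order 2 it ranged from 0 to 1372 CPM with a median of 37.7 in Tomato+ and from 0 to 1242 CPM with a median of 54.9 in Tomato- cells. The share of cells with at least 5 counts was 36.5% (28.4 to 45.1) of Tomato+ and 20% (10.8 to 32.3) of Tomato- cells in order 1, and 58.3% (43.2 to 72.4) of Tomato+ and 56.7% (48.1 to 65.05) of Tomato- cells in order 2. The share was thus higher in Tomato+ cells of order 1 and nearly equal in order 2; the intervals cover counting of cells only, and no spread between animals can be set beside them.

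The similar sums of Tnfsf11 in order 1 rest on few Tomato- cells. A single Tomato- cell carried 43.95% of all Tnfsf11 counts in Tomato- cells of order 1, and 2 cells carried more than 50%. The 14 Tomato+ cells with the most counts, 10% of that group in order 1, held 63.3%, and the 6 Tomato- cells that make up 10% of theirs held 97.2%. The sum of Tnfsf11 in those Tomato- cells thus describes a handful of cells. Without the cell with the most counts in each group and order, the log2 ratio of Tnfsf11, Tomato+ over Tomato-, was 0.91 in order 1 and -0.17 in order 2, instead of 0.23 and 0.0044. The Tomato- cell with the most Tnfsf11 had 3487 CPM of it, 28.8 CPM of Csf1, no Il34, and 2916 CPM of Lepr. It also held 76472 CPM of Ibsp, which encodes bone sialoprotein and had a median of 8578 CPM over all cells, while osteocalcin (Bglap) was at 0 and collagen I (Col1a1) at 9.60 CPM. Tnfsf11 counts were spread over more cells in order 2. The top 10% of cells held less there, 52.3% of Tnfsf11 counts in Tomato+ and 49.6% in Tomato- cells. The top 10% held 27.3% of Csf1 counts in Tomato+ and 31.7% in Tomato- cells of order 2.

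**Figure D2:**
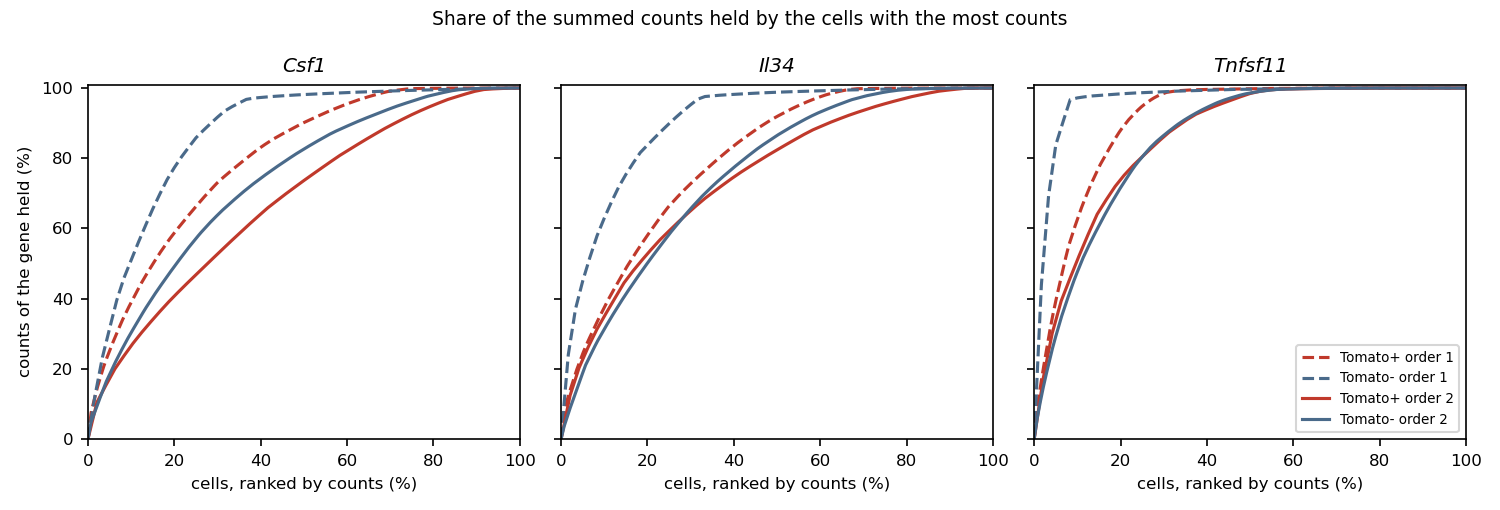
Share of each gene's summed counts (vertical axis, %) held by the cells with the most counts of it (horizontal axis, % of the group's cells), in Tomato+ (red) and Tomato- (blue) cells of order 1 (dashed) and order 2 (solid). Tnfsf11 rises most steeply, above all in Tomato- cells of order 1, where 6 cells hold 97.2% of the counts.

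Tnfrsf11b, the decoy receptor for RANKL, was almost not read in these cells. It had 5.61 CPM (625 counts) in Tomato+ and 0.0912 CPM (3 counts) in Tomato- cells of order 1, a ratio of 61.5 with a counting interval from 20.9 to 299. In order 2 it had 0 counts in the 48 Tomato+ cells and 1.79 CPM in Tomato- cells. A count of 0 allows up to 0.0965 CPM, by counting of reads alone at least 18.5-fold below Tomato- cells of order 2. It also allows a share of up to 6.25% of the Tomato+ cells, more than the 2.84% of Tomato- cells with a count there. A lower share in Tomato+ cells is thus not shown. All counts of order 2 lay in set N2, while set N1, also Tomato-, had none, as had both Tomato+ sets. Nearly all counts of order 1 lay in set P1, and P3 had none. The directions of the orders are opposite, and each rests on a few cells: 16 cells had any count and 5 had at least 5. Those were 3 Tomato+ cells of order 1 with 635.5, 352.5 and 109.8 CPM and 2 Tomato- cells of order 2 with 102.5 and 88.9 CPM. All 5 had at least 5 counts of Csf1, as did 92.5% of all cells, and 4 of them had at least 1000 CPM of Lepr. The fifth, at 635.5 CPM of Tnfrsf11b, had 245 CPM of Lepr. That Tomato+ cell also held 8610.1 CPM of Col1a1, 2936 CPM of Bglap and 616 CPM of Acan, which encode collagen I, osteocalcin and aggrecan. Sp7, of the osteoblast list, was at 335.5 CPM in it, against a median of 0 CPM over all cells. Some other genes of the osteoblast and cartilage lists were low in it. Ibsp was at 668 CPM and Spp1 at 200 CPM, against medians of 8578 and 2396 CPM over all cells, and Sox9 and Comp were at 0. Its osteoblast lineage genes summed to 16243 CPM, against a median of 14106 CPM.

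Per length, Tnfsf11 was far above Tnfrsf11b in every group of cells. The ratio of Tnfsf11 to Tnfrsf11b counts per kilobase was 26.5 in Tomato+ cells of order 1 and 102.1 in Tomato- cells of order 2. It was 1389 in Tomato- cells of order 1, with an interval from 475 to 6735 because it rests on 3 counts of Tnfrsf11b. By counting of reads alone it was at least 1896 in Tomato+ cells of order 2. Of the 170 cells with at least 5 counts of Tnfsf11, 2 also had at least 5 of Tnfrsf11b.

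Differences by title set show where the order 1 gap lies. In order 1 Csf1 had 1004 CPM in the 94 cells of P1, 129.5 CPM in the 5 cells of P2 and 402 CPM in the 38 cells of P3, against 344 CPM in the 60 cells of N2. Set P3 was thus nearer to N2 than to P1. Il34 had 728 CPM in P1, 11.9 CPM in P2 and 206 CPM in P3, against 314 CPM in N2. Only set P1 among the Tomato+ sets of order 1 was above N2 for Il34, and P3 was within 1.5-fold of N2 for Csf1. Tnfsf11 ran otherwise, with 113.2 CPM in P1, 1.84 CPM in P2 and 143.9 CPM in P3, against 100.5 CPM in N2. In order 2 Csf1 had 687 CPM in P1 and 689.7 CPM in P2, against 805.1 CPM in N1 and 744 CPM in N2, so the sets of a group lay close together. Without P1 of order 1 the log2 ratio averaged over both orders was -0.01 for Csf1 and -0.22 for Il34. Set and label cannot be told apart in order 1, where Tomato- cells come from 1 set.

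**Figure D3:**
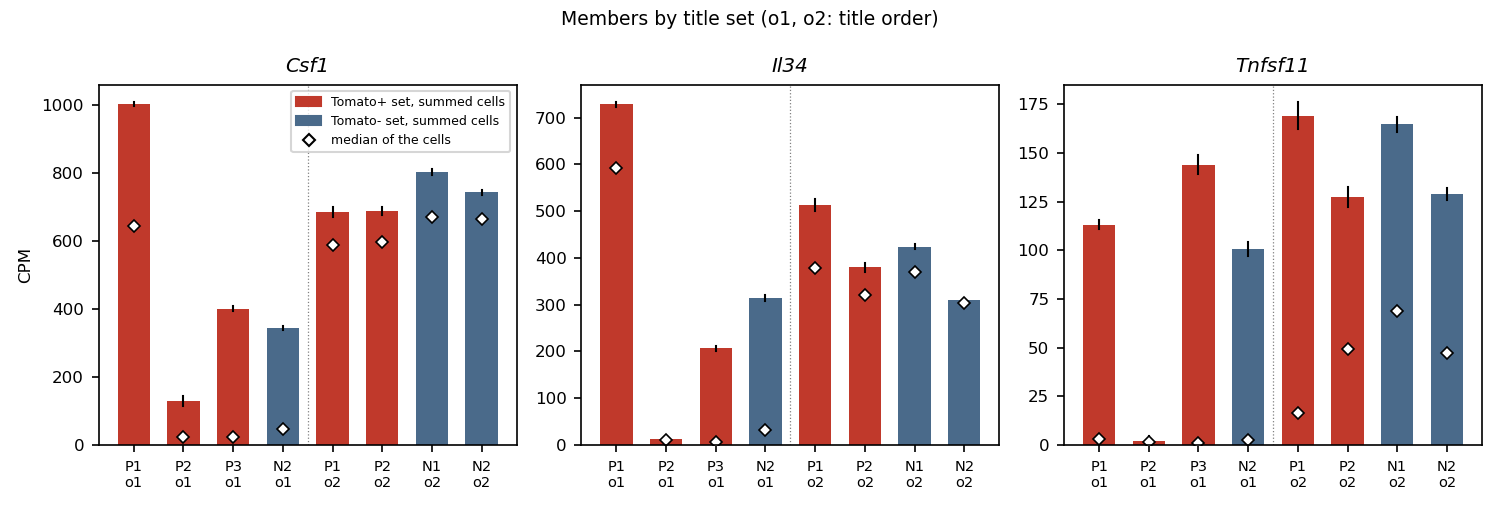
Csf1, Il34 and Tnfsf11 in each title set, as CPM of the summed cells (bars, with exact 95% Poisson intervals) and as the median of the cells (diamonds), order 1 left and order 2 right of the dotted line. In order 1 the bar of Tomato+ set P1 stands highest for Csf1 (1004 CPM) and Il34 (728 CPM), while medians of Tnfsf11 in order 1 are near 0.

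As log2 ratios of CPM + 1, Tomato+ over Tomato-, Csf1 was at 1.30 in order 1 and -0.16 in order 2, and Il34 at 0.92 and 0.28. Tnfsf11 was at 0.23 in order 1 and 0.0044 in order 2, and Tnfrsf11b at 2.60 and -1.48; the values of Tnfrsf11b depend on the added 1 CPM. A size rule of more than 1.5-fold in the same direction in both orders, with at least 20 CPM in the higher group of each, was passed by 0 of the 4 genes. Among 5865 genes with that level, 2.97% passed it as higher and 4.09% as lower in Tomato+ cells. In order 1 alone, where 27.1% of genes were higher and 28.6% lower by more than 1.5-fold, Csf1 and Il34 were past the fold on the higher side. The median log2 ratio of all 5865 genes was 0.03 in order 1 and -0.0014 in order 2.

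The column names of order 1 hold codes that the labels do not explain. Of 12 such codes 7 held cells of both groups, 83 Tomato+ cells, all of set P1, and the 60 Tomato- cells of N2, so that they again set P1 against N2 and leave out P3. Within each of the 7 codes Csf1 and Il34 were higher in Tomato+ cells, with log2 ratios from 0.64 to 5.36 for Csf1 and from 0.74 to 5.08 for Il34. Tnfsf11 was higher in Tomato+ cells in 5 of the 7 codes, from -2.29 to 5.63. In order 2, sets with the same number were taken as pairs: Csf1 was lower in Tomato+ cells in both pairs (-0.23 and -0.11), and Il34 was higher in both (0.27 and 0.29).

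Levels of several marker lists differed between the groups in order 1 along with Csf1 and Il34. The summed level of 12 Lepr+ marrow stroma genes was 69079.6 CPM in Tomato+ and 44174 CPM in Tomato- cells of order 1, and 80121 CPM in Tomato+ and 71572 CPM in Tomato- cells of order 2. Most of the gap in order 1 was Cxcl12, a chemokine of stroma, with 42135 CPM in Tomato+ and 22490 CPM in Tomato- cells. Lepr and Pdgfra of the same list had higher medians in Tomato+ cells there. These were 3058 CPM in Tomato+ and 2895 CPM in Tomato- cells for Lepr, and 110.4 CPM and 23.02 CPM for Pdgfra. As sums, both genes were lower in Tomato+ cells of order 1. Lower too was the sum of 12 osteoblast lineage genes, at 19282 CPM in Tomato+ and 24570 CPM in Tomato- cells of order 1. That sum does not describe each of its genes, since Spp1 and Runx2 were higher in Tomato+ cells there. The sum of 8 pericyte and smooth muscle genes was lower, at 279.9 CPM in Tomato+ and 1281 CPM in Tomato- cells of order 1. That of 12 endothelial genes was higher, at 458 CPM in Tomato+ and 111.3 CPM in Tomato- cells. At least 1000 CPM of Lepr was found in 80.3% of Tomato+ and 63.3% of Tomato- cells of order 1, and in 97.9% of Tomato+ and 88.7% of Tomato- cells of order 2. By set of order 1, cells at this limit made up 91.5% of P1, 0% of P2 and 63.2% of P3, against 63.3% of N2. Only P1 among the Tomato+ sets of order 1 was thus above N2. This limit divides a range, and 37 cells lay between 500 and 2000 CPM. Among the 320 cells above the limit Csf1 was at 926 CPM in Tomato+ and 393 CPM in Tomato- cells of order 1, a log2 ratio of 1.24, compared with 1.30 in all cells. In order 2 it was at 702 CPM in Tomato+ and 882 CPM in Tomato- cells of that class. Il34 there had 663 CPM in Tomato+ and 373 CPM in Tomato- cells of order 1, and 445 CPM in Tomato+ and 413 CPM in Tomato- cells of order 2. The order 1 ratios of the sums thus moved little in cells of this class, but the medians drew closer. The median cell of order 1 above the limit had 608 CPM of Csf1 in Tomato+ and 257 CPM in Tomato- cells, against 563 CPM in Tomato+ and 46.9 CPM in Tomato- cells when all cells were taken. For Il34 the medians were 523 CPM in Tomato+ and 164.9 CPM in Tomato- cells above the limit, against 409 CPM in Tomato+ and 31.6 CPM in Tomato- cells when all were taken. The part of these marker genes in the gap was not tested.

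**Figure D4:**
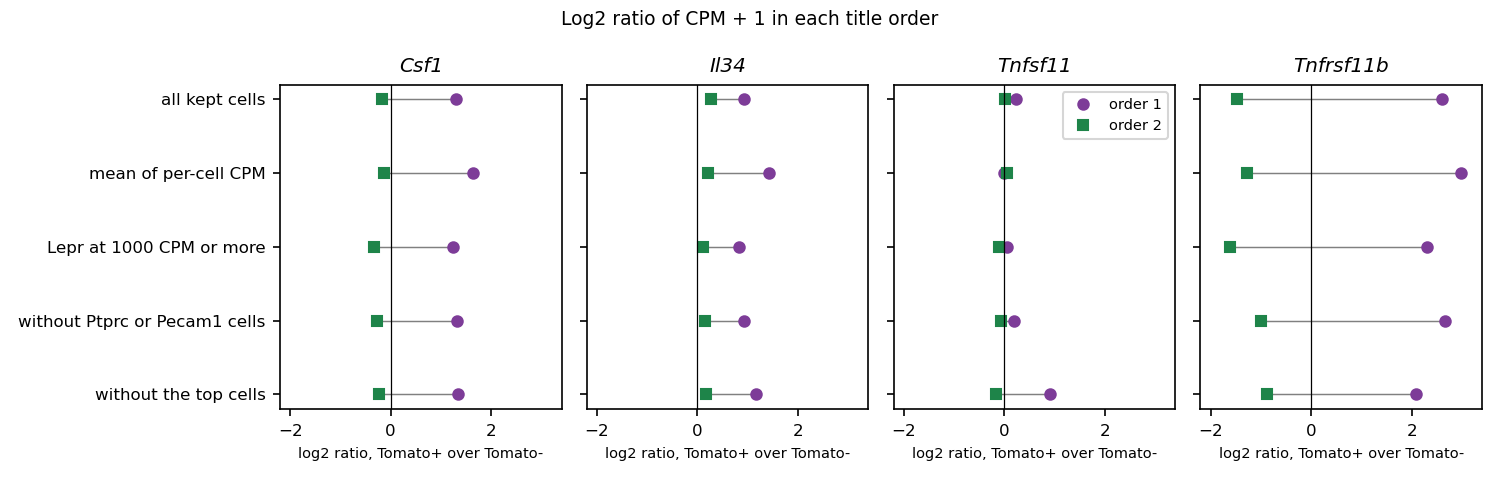
Log2 ratio of CPM + 1, Tomato+ over Tomato-, in order 1 (purple circles) and order 2 (green squares) for each gene, in all kept cells and in 4 other ways of taking the cells. Csf1 and Tnfrsf11b lie on opposite sides of 0 in the orders in every row, Il34 lies above 0 in each, and Tnfsf11 of order 1 moves to 0.91 without the top cells.

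All 3 ligands had lower summed levels in cells with little Lepr. The 320 cells with at least 1000 CPM of Lepr had 822.6 CPM of Csf1, 517 CPM of Il34 and 142.1 CPM of Tnfsf11, against 178.5 CPM, 70.3 CPM and 31.2 CPM in the other 66 cells. The 12 cells with at least 5 counts of Ptprc, all Tomato-, had 61.1 CPM of Csf1, 87.8 CPM of Il34 and 2.77 CPM of Tnfsf11. A single cell held 75.1% of those Csf1 counts and 96.1% of those Il34 counts, and the medians of the 12 cells were 12.3 CPM of Csf1 and 4.24 CPM of Il34. The 28 cells with at least 5 counts of Pecam1 had 465 CPM of Csf1, 300.0 CPM of Il34 and 90.9 CPM of Tnfsf11. Csf1 and Il34 were thus low in nearly all cells with the blood gene Ptprc, and in cells with Pecam1 nearer to the level of all cells. The 8 granulocyte genes listed summed to 94.96 CPM in Tomato+ and 21401 CPM in Tomato- cells of order 2, and to 5.65 CPM in Tomato+ and 1.28 CPM in Tomato- cells of order 1. Without cells holding Ptprc or Pecam1 the log2 ratios in order 1 were 1.32 for Csf1 and 0.92 for Il34, and in order 2 -0.27 and 0.16.

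Most cells carried the CSF1R ligands together. Csf1 and Il34 without Tnfsf11 or Tnfrsf11b, each at 5 counts or more, were found in 40.2% of all cells, and Csf1, Il34 and Tnfsf11 together in 38.9%. Cells with Tnfsf11 thus mostly held both CSF1R ligands, as most cells did. Csf1 alone was found in 34 cells, Csf1 with Tnfsf11 in 13, Il34 alone in 8 and Tnfsf11 alone in 3, and 16 cells had none of them. Of the 170 cells with Tnfsf11, 97.1% also had Csf1 and 90.6% Il34, against 92.5% and 82.6% of all cells. The combination of all 3 ligands without Tnfrsf11b was seen in 29.9% of Tomato+ and 11.7% of Tomato- cells of order 1, and in 56.2% of Tomato+ and 53.2% of Tomato- cells of order 2. The ranks of Csf1 and Il34 across cells gave a Spearman rho of 0.38 in Tomato+ and 0.42 in Tomato- cells of order 1, and of -0.10 in Tomato+ and 0.33 in Tomato- cells of order 2. Tnfsf11 showed weaker values with Csf1, between -0.11 and 0.19, and with Il34, between -0.19 and 0.17. The points are all kept cells of a group in an order; they share column-name codes and differ in depth, and such correlations are descriptions.

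The genes most like each ligand were taken from 3375 genes with a count in at least 50% of cells, by the mean Spearman rho over the 4 combinations of group and order. For Csf1 they included Vcam1 (0.38), Saraf (0.35), Ftl1 (0.33) and Csnk1a1 (0.32). For Il34 they were Lamp1 (0.42), Dpep1 (0.42), Cxcl12 (0.38), Prelp (0.37) and Agt (0.36). For Tnfsf11 the values were lower, with Purb (0.24), Errfi1 (0.23), March5 (0.23), Ltbp2 (0.23) and Htra1 (0.22), and Tnfrsf11b was read in too few cells to be ranked. Lepr ranked at place 17 for Csf1 and 26 for Il34, and at place 2288 for Tnfsf11.

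CSF1R and RANK, the main receptors of these ligands, were hardly read, while other receptors were. Csf1r, the receptor of CSF1 and IL-34, had 0.287 CPM in Tomato+ and 0.0304 CPM (1 count) in Tomato- cells of order 1, and 3.41 CPM in Tomato+ and 1.61 CPM in Tomato- cells of order 2. It reached 5 counts in 4 Tomato+ and 6 Tomato- cells. All 10 had at least 1000 CPM of Lepr and at least 5 counts of Csf1, and 1 had at least 5 counts of Ptprc. Of all cells 92.5% had at least 5 counts of Csf1. Tnfrsf11a, which encodes RANK, had 1.47 CPM in Tomato+ cells of order 1 and no count in the other cells, and 1 Tomato+ cell with Pecam1 and with Lepr under 1000 CPM held 98.8% of its counts. Lgr4, a further receptor of RANKL, was read in most cells, with 66.2 CPM in Tomato+ and 171.99 CPM in Tomato- cells of order 1, and 45.4 CPM in Tomato+ and 64.1 CPM in Tomato- cells of order 2. Its log2 ratios, -1.37 and -0.49, did not pass the size rule. Sdc1, which encodes syndecan-1, a surface proteoglycan that also binds IL-34, had 476 CPM in Tomato+ and 256 CPM in Tomato- cells of order 1, and 593 CPM in Tomato+ and 467 CPM in Tomato- cells of order 2, and its log2 ratios, 0.89 and 0.34, did not pass either. Ptprz1, which encodes a phosphatase receptor of IL-34, stayed under 20 CPM in both groups of both orders. Among 15 macrophage and monocyte genes Adgre1 and Fcgr1 were at 0 in both groups of order 1, and the list summed to 61.9 CPM in Tomato+ and 114.99 CPM in Tomato- cells there. In order 2 that list summed to 153.9 CPM in Tomato+ and 2429 CPM in Tomato- cells. The osteoclast genes Calcr, Oscar, Dcstamp and Ocstamp had no count in any kept cell, and Ctsk, a protease of osteoclasts that stromal cells also express, had 194.9 CPM in Tomato+ and 153.98 CPM in Tomato- cells of order 1.

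Of 69 listed genes that act with these ligands, 63 had a count and 36 reached 20 CPM in the higher group of each order. Of these 36 genes 2 passed the size rule as higher in Tomato+ cells and 0 as lower, where 2.97% of all 5865 genes passed as higher and 4.09% as lower. A count this near the background is not a result about the list. The median log2 ratio of the 36 genes was 0.39 in order 1 and -0.03 in order 2. Il15, a cytokine for natural killer and T cells, had 68.7 CPM in Tomato+ and 42.03 CPM in Tomato- cells of order 1, and 41.3 CPM in Tomato+ and 18.3 CPM in Tomato- cells of order 2 (log2 ratios 0.70 and 1.13). Ccl7, a chemokine for monocytes, had 1579 CPM in Tomato+ and 615 CPM in Tomato- cells of order 1, and 591 CPM in Tomato+ and 391 CPM in Tomato- cells of order 2 (1.36 and 0.59). Neither held under all ways of taking the cells. Without set P1 of order 1 the order 1 ratio of Il15 was -0.05, and without set P2 of order 2 the order 2 ratio of Ccl7 was -0.12. The median of Ccl7 in order 2 was 8.65 CPM in Tomato+ and 71.3 CPM in Tomato- cells, opposite to the sums. In order 1 the medians, 82.9 CPM in Tomato+ and 35.7 CPM in Tomato- cells, ran with the sums. Without the cell with the most counts in each group and order, the order 2 ratio of Ccl7 was 0.33. Among cells with at least 1000 CPM of Lepr, Il15 was at 0.40 in order 1 and Ccl7 at 0.42 in order 2, below the fold.

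Il15 and Ccl7 belong to a list of 27 other secreted or cell-surface factors, of which 10 reached 20 CPM in both orders; none of the other lists had a gene past the rule. Of that list, Ccl2, a monocyte chemokine related to Ccl7, had 5791 CPM in Tomato+ and 3693 CPM in Tomato- cells of order 1 and 5295 CPM in Tomato+ and 3675 CPM in Tomato- cells of order 2, with log2 ratios of 0.65 and 0.53. Il6, which acts on osteoclast formation through stromal cells, had 388 CPM in Tomato+ and 249.7 CPM in Tomato- cells of order 1, and 285 CPM in Tomato+ and 303 CPM in Tomato- cells of order 2. Csf2 and Csf3, which encode the granulocyte-macrophage and granulocyte colony-stimulating factors, had no count. Of 3 proteases that shed membrane-bound ligands, Adam10, Adam17 and Mmp14 reached 20 CPM and 0 passed. Of 21 stromal regulators of Tnfsf11 and Tnfrsf11b, 17 reached 20 CPM and 0 passed. Among these Vdr, the vitamin D receptor, had 66.03 CPM in Tomato+ and 89.02 CPM in Tomato- cells of order 1 and 53.7 CPM in Tomato+ and 44.8 CPM in Tomato- cells of order 2. Rela, an NF-κB subunit, had 89.3 CPM in Tomato+ and 30.1 CPM in Tomato- cells of order 1. In order 2 Rela had 65.7 CPM in Tomato+ and 97.9 CPM in Tomato- cells, the opposite direction. Nfkb1, another NF-κB subunit of that list, was lower in Tomato+ cells of both orders, with log2 ratios of -0.14 and -0.61.

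**Figure D5:**
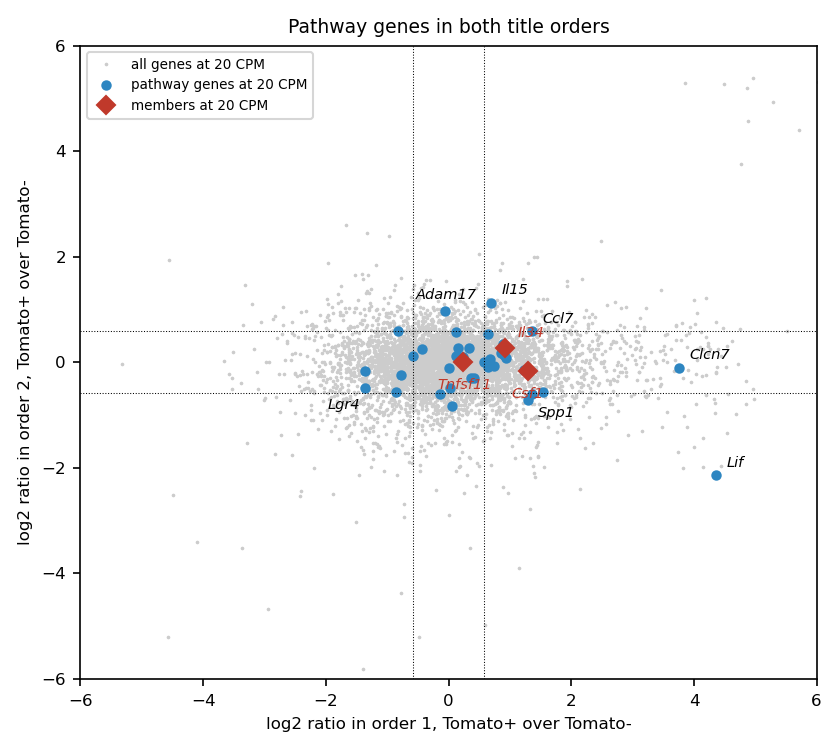
Log2 ratio, Tomato+ over Tomato-, in order 1 (horizontal) and order 2 (vertical) for all 5865 genes at 20 CPM (grey; 2 lie outside the axes), for 36 pathway genes (blue) and for Csf1, Il34 and Tnfsf11 (red); dotted lines mark 1.5-fold. Il15 and Ccl7 are the pathway genes beyond both lines on the higher side.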

How the data were processed

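Single sorted bone marrow stromal cells were measured, 187 Tomato+ and 201 Tomato-. Per the file headers, whose order 1 column names end in an RSEM suffix, and from the values, the deposited values are expected counts per gene and cell, not normalized; 4.91% of values above 0 were not whole, and 0 of the 1552 values of the 4 genes. StringTie 1.3.3b, HTSeq 0.6.0, HISAT and the build GRCm38 come from the submitters' processing notes, without their roles. Neither the annotation nor the strand setting is given in the sources used here. The labels' protocols describe reverse transcription and amplification of each cell's RNA and no molecular identifiers, so 1 molecule can give many counts.

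Expected counts were rounded. A cell was kept at 1000 genes and 10000 counts or more, which left out 2. The 386 kept cells were 137 Tomato+ and 60 Tomato- in order 1, and 48 Tomato+ and 141 Tomato- in order 2. Columns were matched by name to group and title set, not to single cells; 0 columns were left unused and 0 were duplicates. Sets and cell numbers tie each part of the columns to an order. No doublet caller was run. Within an order, the counts of a group's cells were added, scaled to CPM and compared as log2 of CPM + 1, averaged over the orders; low genes change by more than such a ratio shows. There are no tests, since the labels name no animal. A count of 0 was taken to allow 3 counts. Python 3.11.15, numpy 2.4.6, pandas 2.3.3 and scipy 1.17.1 were used, and the fold rule was checked on simulated data.

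The members, gene lists and rules were chosen with earlier results of these data known. Named were the 4 members, pathway genes past the size rule, the receptors Csf1r, Tnfrsf11a and Lgr4, the checks Lepr, Pdgfra, Ptprc, Pecam1 and Kit, and the 5 genes most like each member read in enough cells; single list members given as examples, and the marker genes of 2 single cells, were chosen after their values were seen. Alternatives were the unrounded counts, no filter on cells, the mean of per-cell CPM, other size factors and pseudocounts, thinning to 150000 counts, other minimums, setting counts under 1% of the highest among cells that share a code to 0, leaving out cells or sets, and ratios within the codes of the column names; the cells with at least 1000 CPM of Lepr were added after seeing the data. A gene among those most like Csf1 is not reported here.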

Additional observations from a re-analysis of the deposited data

Results flagged for a closer look

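Csf1 differed between the orders: its log2 ratio, Tomato+ over Tomato-, was 1.30 in order 1 and -0.16 in order 2, with the sums on opposite sides of equal. Tnfrsf11b did so as well, with 2.60 in order 1 and -1.48 in order 2; its levels were 5.61 CPM in Tomato+ and 0.0912 CPM in Tomato- cells of order 1, and 0 CPM in Tomato+ and 1.79 CPM in Tomato- cells of order 2. Neither difference between the orders was tested, since each group is 1 sample in each order. Tomato- cells of order 1 all come from set N2, and order, set and label cannot be told apart there.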

How the results depend on the processing

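Averaged over the orders, the log2 ratios, Tomato+ over Tomato-, were 0.57 for Csf1, 0.60 for Il34, 0.12 for Tnfsf11 and 0.56 for Tnfrsf11b. In that order of genes they were 0.75, 0.82, 0.026 and 0.85 from the mean of per-cell CPM, 0.52, 0.54, 0.070 and 0.84 without cells holding Ptprc or Pecam1, 0.45, 0.47, -0.031 and 0.35 in cells with at least 1000 CPM of Lepr (added after seeing the data), and 0.30, 0.69, -0.10 and 1.20 with the cells of both orders summed. Median-of-ratios size factors gave 0.52 for Csf1, 0.55 for Il34 and 0.065 for Tnfsf11. Ratios within column-name codes, which hold P1 and N2 only in order 1, or set numbers that hold both groups gave 0.69 for Csf1, 0.76 for Il34 and 0.81 for Tnfrsf11b. Csf1 was at 0.59 with counts under 1% of the highest among cells that share a code set to 0; without the top cells Il34 was at 0.67 and Tnfsf11 at 0.37; Tnfrsf11b was at 0.33 with a pseudocount of 0.1 and 0.20 with 10. Leaving out 1 set at a time gave -0.16 to 0.67 for Csf1, -0.22 to 0.73 for Il34, 0.0044 to 0.23 for Tnfsf11 and -1.48 to 1.30 for Tnfrsf11b; for Csf1, Il34 and Tnfrsf11b the sign changed without P1 of order 1 or without N2 of order 1, which leaves order 2 alone, except that Il34 stayed at 0.28 without that set. The cause was not tested. Shares of cells with any count were 97.3% of Tomato+ and 100% of Tomato- cells for Csf1, 96.8% and 99.005% for Il34, 70.8% and 74.1% for Tnfsf11, and 4.86% and 3.48% for Tnfrsf11b. With at least 5 counts they were 89.2% and 95.5%, 81.6% and 83.6%, 42.2% and 45.8%, and 1.62% and 0.995%. These shares pool the orders, but Tomato+ cells are mostly of order 1 and Tomato- cells mostly of order 2. Within each order the share with at least 5 counts of Il34 and Tnfsf11 was higher in Tomato+ cells, opposite to the pooled values. The gap was small for Il34 in order 1 and Tnfsf11 in order 2. The share for Csf1 was lower in Tomato+ cells of order 1 and higher in order 2. Summed cells mix the orders too: Tnfsf11 was at -0.10, but at 0.23 and 0.0044 by order. Thinned to 150000 counts, Il34 was in 89.5% and 92.02% and Tnfsf11 in 53.6% and 57.4% (4 Tomato+ and 13 Tomato- cells were shallower). With the 1% limit they were 82.2% and 75.1% for Csf1, 78.9% and 67.2% for Il34, 40.5% and 44.8% for Tnfsf11, and 2.16% of Tomato+ cells for Tnfrsf11b, so that the group with the larger share turned round for Csf1 and Il34. The 2 pathway genes called higher became 4 with no CPM minimum, 1 with a minimum of 50 CPM, 1 with median-of-ratios size factors and 0 in the cells with Lepr; the 0 called lower became 2 with no minimum, 1 with the mean of per-cell CPM and 1 in the cells with Lepr. No paired analysis was possible because each group is 1 sample, so that no model was fitted; the ratios within codes and set numbers are descriptions.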
